A study of Mus musculus with 4 samples.

Results

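The miR-1, miR-133 and miR-206 family of muscle miRNAs was followed in the vesicles that cells of C2C12, a mouse myoblast line, shed into their medium. Extracellular vesicles are membrane particles that carry RNA and protein out of the cell. The comparison asks which miRNAs differ between the vesicles of damaged cells and those labelled WT. Members were the entries of the deposited count table for miR-1a-3p (MIMAT0000123), miR-1a-1-5p (MIMAT0016979), miR-1a-2-5p (MIMAT0017047), miR-133a-3p (MIMAT0000145), miR-133b-3p (MIMAT0000769) and miR-206-3p (MIMAT0000239), in all gene copies, together with the other arm of each hairpin (same chromosome and strand, start within 60 bases). The rule found 12 of the 2110 entries, 8 by identifier and 4 as the other arm, from 6 hairpins and 9 mature identifiers. The damaged group held 2 libraries from wild-type-genotype C2C12 cells treated with hydrogen peroxide, and the WT group held 2 libraries from the same line whose treatment label is WT. Cells of both groups were grown in DMEM with fetal bovine serum. The sources used here give neither the dose nor the time of the peroxide treatment. Nothing states whether replicates were grown separately, and p-values therefore measure only how far these samples spread, possibly for technical reasons.

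A miRNA is cut from a hairpin as a 5p and a 3p arm. One arm is usually kept by the silencing complex, where its seed, bases 2 to 8, pairs with target mRNAs. The genes of this family come as pairs in which a miR-1 or miR-206 hairpin and a miR-133 hairpin lie close together and can be transcribed as 1 unit. They are switched on by the muscle transcription factors MyoD, myogenin and MEF2 when myoblasts differentiate. miR-1 and miR-206 share a seed and are known to favour differentiation, in part through Hdac4, whereas miR-133 is known for promoting myoblast proliferation through SRF. miR-133a and miR-133b are near-identical and differ only at the 3′ end of the mature sequence.

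The sequences shown first are the 2 miRNAs of the chromosome 1 pair, of which miR-133b-3p passed the test between groups and miR-206-3p did not, with the seed in capitals. RefSeq (GRCm38.p6) gave a mature sequence for 5 of the 12 entries, 5′ to 3′.
miR-206-3p: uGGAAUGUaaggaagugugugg
miR-133b-3p: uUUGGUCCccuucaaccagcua
Their hairpins are given next with both mature arms in capitals, because the arms are counted as separate entries. Mir206 (chr1:20679010-20679082, plus strand) and Mir133b (chr1:20682769-20682887, plus strand) are separated by 3686 bases.
Mir206: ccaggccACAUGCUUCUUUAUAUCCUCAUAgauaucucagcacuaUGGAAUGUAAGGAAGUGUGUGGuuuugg
Mir133b: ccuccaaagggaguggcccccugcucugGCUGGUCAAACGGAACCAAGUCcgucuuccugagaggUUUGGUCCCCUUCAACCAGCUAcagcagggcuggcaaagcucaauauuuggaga
The 5p arms of miR-1a-1 and miR-206 are shown with the bases that differ in capitals, since both were counted far less often than their 3p arms.
miR-206-5p: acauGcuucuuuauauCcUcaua
miR-1a-1-5p: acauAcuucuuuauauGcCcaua
Of their 23 bases, 20 were identical. The differences, with miR-206-5p first and positions counted from 1 at the 5′ end, were G5A, C17G and U19C.

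Both hairpins of the chromosome 1 pair lay in exons of the long noncoding RNA Gm28653 (GENCODE vM21), which RefSeq names Lincmd1. Lincmd1 is known in mouse myoblasts as a cytoplasmic RNA that binds miR-133. Mir1a-1 (chr2:180389048-180389124) and Mir133a-2 (chr2:180398379-180398482) lay 9254 bases apart on the plus strand. They fell between annotated genes in GENCODE vM21 and within Mir1a-1hg, a long noncoding RNA, in RefSeq. Mir133a-1 and Mir1a-2 lay 2504 bases apart on the minus strand of chromosome 18, starting at 10782909 and 10785481, in introns of Mir133a-1hg on the same strand and of the protein-coding gene Mib1 on the opposite strand.

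Library totals were 6901394 and 7350345 counts in damaged replicates 1 and 2, and 4577668 and 7638663 counts in WT replicates 1 and 2. Levels are given as CPM, counts scaled to library size after edgeR's TMM correction for library composition. Damaged and WT libraries were compared with edgeR's quasi-likelihood test over all 536 entries that passed the low-count filter, with Benjamini-Hochberg adjustment at 0.05. The members, which are muscle miRNAs, together held 35.5% and 38.1% of counts in damaged and 29.5% and 33.4% in WT. As the entries under study, they are no separate check of the myoblast label. Epithelial markers summed to 0.000299% to 0.00122% in damaged and 0.0000874% to 0.000314% in WT, with miR-141-3p, miR-200b-3p and miR-203-3p at 0. Markers of blood cells and liver summed to 0.148% to 0.155% in damaged and 0.152% to 0.172% in WT, with miR-122-5p and miR-142a-3p at 0. Most of this sum was miR-451a, with 1501 and 1386 CPM in damaged and 1684 and 1490 CPM in WT. Of the 5 tested entries on this list 3 had a positive log2 fold change, and none passed the test. The entries of miR-203-3p, miR-122-5p and miR-142a-3p, and both of the endothelial miR-126a, share bases with an opposite-strand entry, so their zeros give no level. Bovine reads of identical sequence from the serum cannot be told apart from mouse ones, and their part was not tested.

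Peroxide treatment went with more of the miR-133 3p arms, and with no detected change of the counted miR-206 and miR-1a 3p arms. miR-133b-3p and the 2 genomic copies of miR-133a-3p were 2.17-fold to 2.33-fold higher in damaged. miR-206-3p, by far the most abundant miRNA, and miR-1a-3p were 1.13-fold and 1.21-fold higher and did not pass the test. Of the 12 member entries, 9 were tested, 3 rose and none fell. Among all tested entries, 4.1% were called higher in damaged, 5.41% lower and 9.51% in either direction. In either direction the share was 10.4% with library totals as the only scaling, 14.7% with limma-voom, 20.3% with DESeq2 and 23.7% with a replicate block. The 3 called entries are near-identical in sequence and may hold 1 signal. The median log2 fold change of the 9 tested entries was 1.14, against 0.02 over all 536. In 8 of the 9, both damaged libraries lay above both WT libraries, as they did in 29.1% of all tested entries, and the exception was miR-133b-5p. These counts describe the members and are no test of them as a group.

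**Figure D1:**
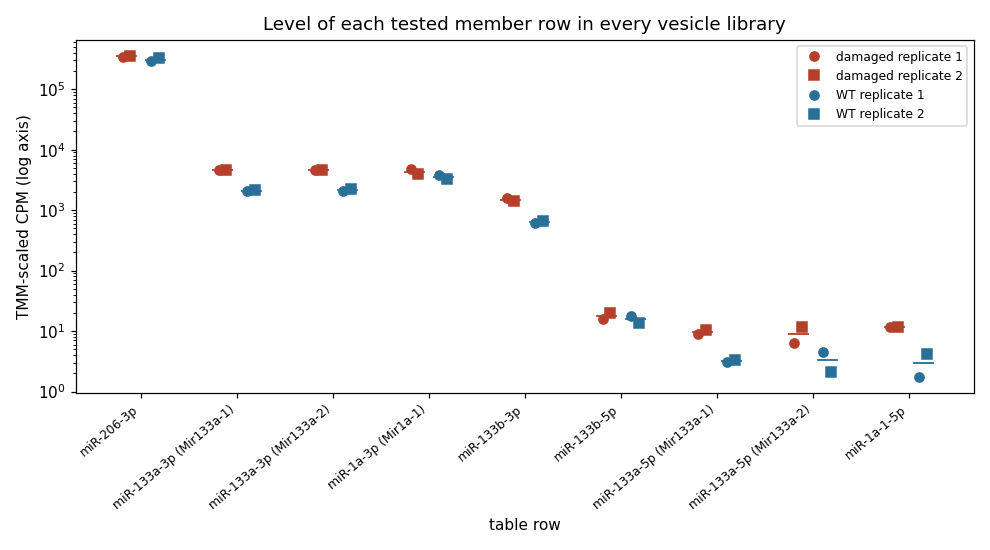
TMM-scaled CPM on a log axis for the 9 tested member entries, with damaged libraries left of WT libraries, circles for replicate 1, squares for replicate 2 and short lines for group means. miR-206-3p sits between 290296 and 357644 CPM in all 4 libraries, the damaged points of the miR-133 3p entries lie above their WT points, and the 5p entries lie below 20 CPM.

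miR-206-3p (chr1:20679055-20679076), which is nearly restricted to skeletal muscle, had 2340927 and 2689150 counts in damaged and 1310920 and 2489000 counts in WT. After scaling this was 341487 and 357644 CPM in damaged and 290296 and 326855 CPM in WT. It ranked first in every library, and both damaged libraries lay above both WT libraries by less than the gap between the WT libraries. The log2 fold change was 0.18 ± 0.11 (SE, 95% interval -0.10 to 0.46), and it did not pass edgeR's test (adjusted p = 0.334). It stood at 0.02 without WT replicate 1 and at 0.30 without WT replicate 2. miR-206-3p held 95.6% and 96.1% of all member counts in damaged and 97.1% and 97.5% in WT. The remaining 11 member entries together took 1.55% and 1.49% of each damaged library, and 0.841% and 0.836% of each WT library. For groups of 2 libraries each, 0.333 is the smallest two-sided p that an exact permutation test can give, and it was the value obtained.

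miR-133b-3p (chr1:20682834-20682855), transcribed from the same locus, had 10834 and 10549 counts in damaged and 2778 and 5054 counts in WT. Scaled, it stood at 1580 and 1403 CPM in damaged and 615 and 664 CPM in WT, with no overlap between groups. It rose by 1.22 ± 0.13 log2 units (SE; edgeR adjusted p = 0.0107). The entry of miR-133a-3p at Mir133a-1 (chr18:10782913-10782934) had 4645 and 4609 CPM in damaged and 2035 and 2177 CPM in WT. The entry at Mir133a-2 (chr2:180398437-180398458) had 4623 and 4618 CPM in damaged and 2053 and 2205 CPM in WT. Each miR-133a-3p entry thus separated the groups by far more than the gap between replicates. The log2 fold changes were 1.14 ± 0.11 for Mir133a-1 and 1.12 ± 0.11 for Mir133a-2 (SE; edgeR adjusted p = 0.00914 for each). By unadjusted p these 3 entries ranked 5, 6 and 9 among the 536 tested, while by log2 fold change miR-133b-3p ranked 58.

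The miR-133 calls held in all 12 alternative fits on the 4 libraries, with a largest adjusted p of 0.0119. In 2 of these fits the call was of a sum, of the miR-133a-3p copies in 1 and of all 3 entries in the other. In edgeR they did not all hold with 3 libraries. Without damaged replicate 1 the log2 fold changes were 1.10, 1.09 and 1.11 for Mir133a-1, Mir133a-2 and miR-133b-3p, and no entry passed (adjusted p = 0.0985, 0.0985 and 0.105). Without WT replicate 1 they were 1.01, 0.99 and 1.09 (adjusted p = 0.134, 0.134 and 0.155), and without WT replicate 2 they were 1.213, 1.198 and 1.305 (adjusted p = 0.132 each). Without damaged replicate 2 all 3 passed (adjusted p = 0.0203 each). DESeq2 called all 3 in every set of 3 libraries (largest adjusted p = 4.79e-05). The summed share of entries that may derive from other RNA classes was also higher in damaged. Those of 16 matched names held 0.645% to 0.691% of counts in damaged and 0.178% to 0.278% in WT, with miR-2861, miR-3960 and miR-5112 at 0. Most of this was miR-6240, with 5039 and 5448 CPM in damaged and 1157 and 2211 CPM in WT. Of the 12 tested entries on this list 11 had a positive log2 fold change, 3 were called higher and 1, miR-5099-3p, lower. Over all tested entries 4.1% were called higher and 5.41% lower. The sum of neural markers was higher too, with 0.120% to 0.159% in damaged and 0.0731% to 0.0858% in WT over 7 of 8 listed names, and miR-9-5p and miR-219a-5p at 0. The largest entry, miR-128-3p of Mir128-1, had 523 and 673 CPM in damaged and 308 and 353 CPM in WT. Of 7 tested neural entries 6 had a positive log2 fold change, 2 were called higher and 5 did not pass. Another 6 of the 13 neural entries share bases with an opposite-strand entry and give no level. Their part in the miR-133 result was not tested.

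**Figure D2:**
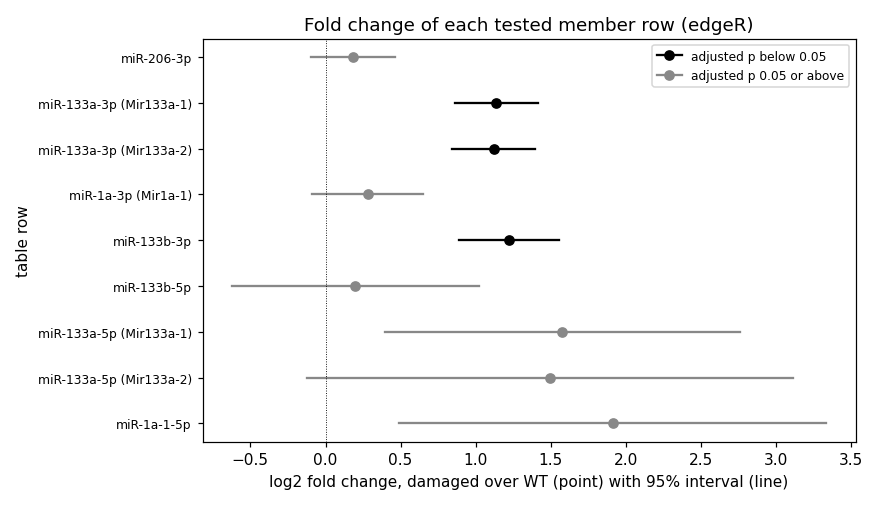
Log2 fold change of damaged over WT for the 9 tested member entries (points) with 95% intervals from edgeR's fit (lines), black where the adjusted p is below 0.05. The miR-133a-3p and miR-133b-3p intervals lie wholly above 0, and those of miR-206-3p and miR-1a-3p include 0. Intervals of the 5p arms are wide. Those of miR-1a-1-5p (0.49 to 3.33) and of miR-133a-5p at Mir133a-1 (0.40 to 2.76) also lie wholly above 0. Those of miR-133b-5p and of miR-133a-5p at Mir133a-2 include 0. Unlike the adjusted p, the intervals take no account of the number of entries tested.

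Reads of miR-133a-3p were split evenly between its identical gene copies. The Mir133a-1 entry took 50.1% and 49.95% of them in damaged and 49.8% and 49.7% in WT, and every exact 95% interval included an even split. Such reads cannot be assigned to the chromosome 2 or chromosome 18 locus, so neither locus can be named as the source of the rise. Summed over both copies, miR-133a-3p had 63530 and 69379 counts in damaged and 18458 and 33363 counts in WT. For each 1000 of these counts there were 171 and 152 counts of miR-133b-3p in damaged and 151 and 151 in WT. This ratio was almost the same in 3 of the 4 libraries and higher in damaged replicate 1. Whether some miR-133a reads were counted as miR-133b, or the reverse, was not tested. Summing the 3 entries into 1 feature gave a difference of 1.13 log2 units (edgeR adjusted p = 0.0119).

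miR-1a-3p is made from Mir1a-1 and Mir1a-2, and only the Mir1a-1 entry (chr2:180389096-180389117) held counts. It had 32470 and 29310 counts in damaged and 17122 and 25292 counts in WT, or 4737 and 3898 CPM in damaged and 3792 and 3321 CPM in WT. The groups did not overlap, but the lowest damaged value was close to the highest WT value. In edgeR the difference was 0.28 ± 0.15 log2 units (SE, 95% interval -0.09 to 0.65, adjusted p = 0.262). It passed in 1 of the other fits, DESeq2 without damaged replicate 2 (log2 fold change 0.42, adjusted p = 0.0423, against 0.0423 to 0.661 over the DESeq2 fits on 3 libraries).

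The Mir1a-2 entries, miR-1a-3p (chr18:10785485-10785506) and miR-1a-2-5p (chr18:10785523-10785545), had 0 counts in all 4 libraries. They share bases with miR-1b-5p and miR-1b-3p on the opposite strand, which also had 0 counts. Among all entries, 106 share bases with an opposite-strand entry, and 105 of them were at 0 in every library, against 1004 of the other 2004. The counting used no strand, and a read that overlaps 2 entries is then given to neither. The zeros therefore give no level for Mir1a-2, and the miR-1a-3p values are those of the Mir1a-1 entry alone. Reads that match both copies of miR-1a-3p may have been split between them, as those of miR-133a-3p were. Over 26 non-member miRNAs with 2 identical entries and at least 1000 counts, the smaller entry took a median of 49.3% of reads (lowest 8.18%). The counted entry may therefore hold only a part of miR-1a-3p, and levels, ranks and ratios that use it are those of this entry. Whether the missing entry would move the miR-1a-3p comparison was not tested.

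All 3p entries are 22 bases long, so their CPM levels can be set side by side per entry, apart from differences in how well each sequence is captured. In damaged vesicles the order was miR-206-3p, then miR-133a-3p and miR-1a-3p with overlapping values, then miR-133b-3p. In WT vesicles the order was miR-206-3p, miR-1a-3p, miR-133a-3p and miR-133b-3p, and no neighbours overlapped apart from the identical miR-133a-3p copies. This order is per entry. Summed over both copies, miR-133a-3p exceeded the counted entry of miR-1a-3p in both WT libraries. Counts were 18458 against 17122 in replicate 1 and 33363 against 25292 in replicate 2. That sum sets both copies of miR-133a-3p against a single copy of miR-1a-3p, since the Mir1a-2 entry has no level. The order of the whole miRNAs is therefore not known. Per entry, miR-133a-3p ranked 30 to 32 among all entries in damaged and 42 to 43 in WT. miR-133b-3p ranked 46 and 53 in damaged and 82 and 79 in WT, while miR-1a-3p stayed at 30 and 34 in damaged and 33 and 33 in WT.

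Ratios within a library do not depend on its scaling. Only that of miR-133b-3p to miR-206-3p is between partners of 1 locus, since the locus behind a miR-133a-3p read is unknown and Mir1a-2 has no level. There were 4.63 and 3.92 counts of miR-133b-3p for each 1000 of miR-206-3p in damaged, against 2.12 and 2.03 in WT. On this measure miR-133b-3p was 2.05-fold higher relative to its neighbour in damaged, and the groups did not overlap. For each 1000 counts of the Mir1a-1 entry of miR-1a-3p there were 1957 and 2367 of miR-133a-3p (both copies) in damaged and 1078 and 1319 in WT. This ratio was 1.80-fold higher in damaged, and its size sets both copies of miR-133a-3p against a single entry of miR-1a-3p. miR-1a-3p relative to miR-206-3p, which share a seed, stood at 13.9 and 10.9 per 1000 in damaged and 13.1 and 10.2 in WT, with overlapping groups. In all, 8 ratios were compared, and the exact two-sided permutation test gave 0.333 for 6 and 0.667 for 2 of them (0.444 and 0.667 after Benjamini-Hochberg adjustment). No ratio could have given a smaller p than 0.333 with these group sizes.

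**Figure D3:**
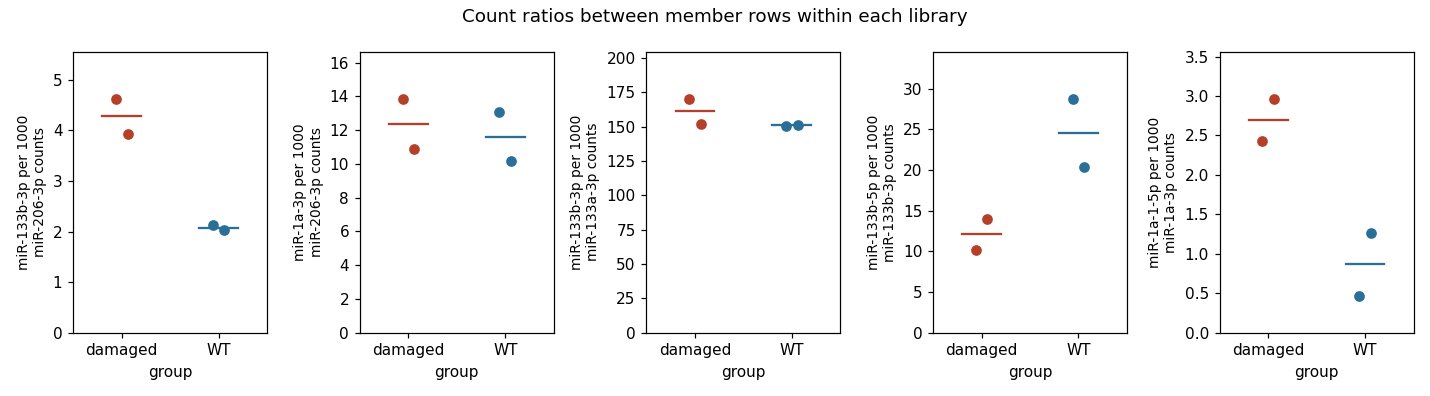
Counts of one member for each 1000 counts of another within each library (points) with group means (lines), damaged left of WT, each axis starting at 0. miR-133b-3p per miR-206-3p is higher in damaged, miR-1a-3p per miR-206-3p and miR-133b-3p per miR-133a-3p are close between groups, and the 5p arms move in opposite directions for miR-133b and miR-1a-1.

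The 5p arms were rare. Together they took 0.00433% and 0.00555% of counts in damaged and 0.00267% and 0.00234% in WT, and no 5p entry passed edgeR's test. miR-133b-5p (chr1:20682797-20682818) stood at 16.05 and 19.7 CPM in damaged and 17.7 and 13.5 CPM in WT, with overlapping groups (log2 fold change 0.20, 95% interval -0.62 to 1.02, adjusted p = 0.765). Its 3p arm rose, so for each 1000 counts of miR-133b-3p there were 10.2 and 14.0 of miR-133b-5p in damaged and 28.8 and 20.4 in WT. This arm ratio did not overlap between groups (exact permutation p = 0.333, the smallest possible). The 5p entry rested on 110 and 148 counts in damaged and 80 and 103 counts in WT.

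The arm ratios of the other hairpins did not follow that of miR-133b. miR-1a-1-5p (chr2:180389057-180389079) had 79 and 87 counts in damaged and 8 and 32 counts in WT, or 11.5 and 11.6 CPM in damaged and 1.77 and 4.20 CPM in WT. The difference of 1.91 ± 0.56 log2 units (SE) did not pass edgeR's test (adjusted p = 0.0837). It passed in 3 of 12 other fits on the 4 libraries, those with no filter, with a replicate block and with a filter of 10 CPM in 2 libraries. The adjusted p ranged from 0.0232, with no filter in edgeR, to 0.101. The entry met the filter of 10 CPM only through the damaged libraries, where it is high, so that fit gives no support. Without WT replicate 2 the fitted value was 2.72, and without WT replicate 1 it was 1.38 (adjusted p = 0.157 and 0.262). The ratio of this 5p arm to miR-1a-3p was 2.43 and 2.97 per 1000 in damaged and 0.467 and 1.27 per 1000 in WT.

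miR-133a-5p had 104 and 166 counts over both copies in damaged and 34 and 41 counts in WT. In edgeR its entries differed by 1.58 (Mir133a-1, adjusted p = 0.0845) and 1.49 log2 units (Mir133a-2, adjusted p = 0.190). Without damaged replicate 2 the Mir133a-2 value was 0.95, and without WT replicate 1 it was 2.02. For each 1000 counts of miR-133a-3p there were 1.64 and 2.39 of miR-133a-5p in damaged and 1.84 and 1.23 in WT, with overlapping groups. miR-206-5p (chr1:20679017-20679039) had 6 and 7 counts in damaged and 0 and 3 counts in WT, too few to enter the test. A count of 0 allows up to 3 counts, or 0.664 CPM in WT replicate 1, for counting error only.

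Among other muscle-enriched miRNAs, none of 4 tested entries passed the test. miR-499-5p, made from an intron of a myosin heavy chain gene, had 2334 and 1798 CPM in damaged and 1338 and 1320 CPM in WT (0.64 log2 units, edgeR adjusted p = 0.0609). miR-208b-3p, also from a myosin intron, had 31.9 and 35.9 CPM in damaged and 13.1 and 5.78 CPM in WT (1.87 log2 units, edgeR adjusted p = 0.0544). miR-499-3p, the other arm of the miR-499 hairpin, had 15.2 and 20.2 CPM in damaged and 35.7 and 34.3 CPM in WT (-0.98 log2 units, edgeR adjusted p = 0.0790). miR-208a-3p had 5.69 and 6.92 CPM in damaged and 3.76 and 8.01 CPM in WT, with overlapping groups (0.08 log2 units, edgeR adjusted p = 0.952). Of 30 tested entries of other miRNAs linked to myoblast growth and differentiation, 2 rose, 5 fell and 23 did not pass. Among all tested entries the shares called were 4.1% higher and 5.41% lower. Identical copies of a miRNA are counted here as separate entries. The median log2 fold change of the 30 was -0.05 against 0.02 over all tested entries. The most abundant of the 30 over all 4 libraries, miR-27b-3p, had 28545 ± 2.66 CPM in damaged and 38198 ± 6655 CPM in WT (SD, n = 2). The next over all 4 libraries, miR-23a-3p, had 23443 ± 2618 CPM in damaged and 15725 ± 1503 CPM in WT (SD, n = 2). In WT alone miR-378a-3p was higher than miR-23a-3p, with 18471 ± 4160 CPM in damaged and 18893 ± 2956 CPM in WT (SD, n = 2). Neither miR-27b-3p nor miR-23a-3p passed edgeR's test (adjusted p = 0.124 and 0.0531). The entries called higher were the 2 copies of miR-125b-5p (0.75 and 0.78 log2 units). Those called lower were miR-497a-5p (-1.28), miR-351-5p (-1.13), miR-322-5p (-1.33) and the 2 copies of miR-199a-3p (-0.87 and -0.86).

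**Figure D4:**
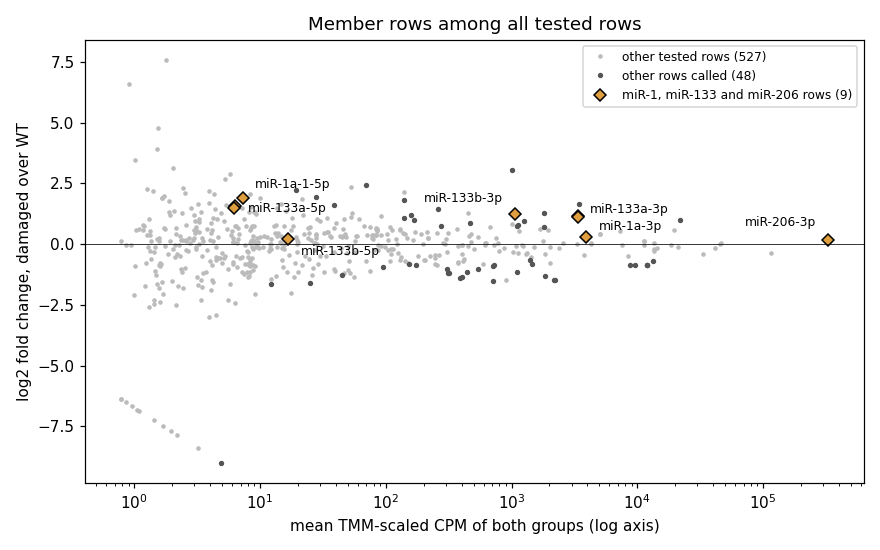
Log2 fold change of damaged over WT against the mean TMM-scaled CPM of both groups (log axis) for all 536 tested entries, with the 9 member entries as diamonds and the 48 other called entries in dark grey. miR-206-3p stands alone at the right near 0, and the miR-133 3p entries lie above 1 at mid to high levels. Fitted values beyond 5 in size at the left belong to entries with no counts in 1 group and are no measure of size.

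Likeness of pattern was measured as the root mean square difference of log2 CPM, centred on each entry's mean, over the 4 libraries and 527 tested non-member entries. The entries most like miR-206-3p were let-7a-5p of Mirlet7a-2 (0.04 log2 units) and of Mirlet7a-1 (0.05) and miR-471-3p (0.06), against a median of 0.51 over all entries compared. Those most like miR-133b-3p were 1 of 2 copies of miR-3084-5p (0.03), miR-22-3p (0.15) and miR-132-5p (0.16), against a median of 0.78. miR-22-3p, a miRNA abundant in muscle, had 33639 and 24954 CPM in damaged and 14261 and 14927 CPM in WT. For miR-133a-3p they were the same miR-3084-5p entry (0.06), miR-328-3p (0.12) and miR-132-5p (0.12), against a median of 0.74. The miR-3084-5p entry was low, with 7.15 and 6.65 CPM in damaged and 2.66 and 3.02 CPM in WT. For miR-1a-3p they were miR-463-5p, miR-425-5p and miR-181a-5p of Mir181a-2 (0.06, 0.07 and 0.07), against a median of 0.53. These are descriptions over 4 libraries, with no test.

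The annotated start regions of 2 host transcripts are shown because the pair on chromosome 1 and the pair on chromosome 2 both hold a hairpin whose miR-133 3p entry was called higher, although reads of the miR-133a copies cannot be assigned to 1 locus. The entry at Mir133a-1 was called higher too, and the start region of its host Mir133a-1hg was not analysed here. Each window runs from 250 bases before to 50 bases after the RefSeq start on the plus strand, with every match to CANNTG, the E-box core that myogenic factors bind, in capitals. The motif reads the same on both strands and was searched as CANNTG and as CAGCTG, which is 1 form of it.
Lincmd1 (chr1:20669632-20669931): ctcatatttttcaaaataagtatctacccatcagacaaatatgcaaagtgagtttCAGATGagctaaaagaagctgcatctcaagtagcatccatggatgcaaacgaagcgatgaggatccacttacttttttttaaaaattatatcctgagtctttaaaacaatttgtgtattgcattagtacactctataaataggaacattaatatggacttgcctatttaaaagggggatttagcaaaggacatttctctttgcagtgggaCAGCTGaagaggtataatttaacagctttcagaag
Mir1a-1hg (chr2:180385354-180385653): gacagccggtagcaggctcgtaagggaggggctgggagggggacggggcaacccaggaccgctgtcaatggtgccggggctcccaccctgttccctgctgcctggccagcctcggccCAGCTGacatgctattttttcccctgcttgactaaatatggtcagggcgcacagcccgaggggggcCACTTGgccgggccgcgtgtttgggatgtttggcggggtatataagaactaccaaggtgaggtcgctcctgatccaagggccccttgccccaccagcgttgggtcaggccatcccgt
Each window held 2 matches to CANNTG, as did 39.6% of 32851 promoters of the same length with at least that many, and 72.3% held 1 or more. Each held 1 CAGCTG, after the start in Lincmd1 and before it in Mir1a-1hg, and 16.3% of all promoters held it. These matches describe the letters in the windows and say nothing of binding in these cells.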

How the data were processed

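The deposited file holds raw read counts per mature miRNA entry for 2 damaged and 2 WT vesicle libraries. The authors ran FastQC, BWA and featureCounts on build mm10, per the submitters' processing notes. The counter was featureCounts 2.0.1, per the file headers, and it counted features of type miRNA by ID, with no option for strand, multi-mapping or overlapping features. The sources used here give no trimming step or BWA version. Entries were named from RefSeq (GRCm38.p6) at the same coordinates, or from GENCODE vM21 hairpins and arm position (2100 of 2110 named). Counts were tested with edgeR 4.0.16 in R 4.3.3 (TMM, filterByExpr at 10 counts, group only, 536 entries, checked on simulated data). The SE is the log2 fold change divided by the square root of F. The alternatives used limma 3.58.1, DESeq2 1.42.0, other scalings, filters and summed copies. Ratios used a pseudocount of 0.5 counts, and intervals cover counting error only. Members, lists and tests were chosen with earlier results of these data known. All member entries are given, with the 3 entries most like each of 4 members and the 2 most abundant of the myogenic list. Further list members were chosen after their values were seen.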

Additional observations from a re-analysis of the deposited data

How the results depend on the processing

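The direction of all 9 tested members was kept in every alternative that gave a value. Over the whole table edgeR called 51 entries, and 77 with upper quartile scaling, 131 with no filter, 91 with the stricter filter of 10 CPM in 2 libraries, 109 with DESeq2 and 79 with limma-voom. Leaving out 1 library gave 0 to 30 calls in edgeR and, chosen after seeing the data, 59 to 80 in DESeq2. At an unadjusted p under 0.05, edgeR had 144, 103 and 124 entries in the sets with 0 calls (without damaged replicate 1, WT replicate 1 and WT replicate 2). Without 1 library, 0 to 3 member entries were called in edgeR and 3 to 4 in DESeq2, where miR-1a-3p also passed without damaged replicate 2. Without 1 library, log2 fold changes were 1.009 to 1.213 for miR-133a-3p at Mir133a-1, 0.989 to 1.198 at Mir133a-2 and 1.09 to 1.305 for miR-133b-3p in edgeR. Those of miR-1a-3p were 0.11 to 0.40 in edgeR and 0.16 to 0.42 in DESeq2. In each of these fits the lone library of a group is assumed to vary like the others. Deviations from the group means of damaged replicate 1 and WT replicate 1 had a correlation of 0.0032 over 536 entries. With 2 libraries a group, this value cannot tell whether replicate numbers mark pairs, which the labels do not state. The fit with a replicate block called 127 entries, the 3 miR-133 entries and miR-1a-1-5p among them. The log2 5p to 3p ratio of miR-206 differed by 1.93 between groups, and by 0.95 with a pseudocount of 2 counts, since 1 WT library had 0 counts. The causes of the other differences were not tested. Depth limits the 5p arms, and 2 libraries a group limit every test.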
